A study of Mus musculus with 2 samples.

Results

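The protein-coding genes for the proteins of the cytosolic ribosome were compared between supportive and non-supportive intestinal subepithelial myofibroblasts (ISEMFs). Members were chosen by gene symbol alone, as protein-coding genes named Rpl or Rps with a number or letter of the ribosomal protein nomenclature. This gave 83 genes out of 37309 listed, 51 of the large subunit and 32 of the small subunit, and the symbol rule uses no measured value. ISEMFs are contractile, smooth muscle actin-positive cells that lie beneath the intestinal epithelium. Supportive ISEMFs were cultured from the small intestine of neonatal C57BL/6 mice and non-supportive ISEMFs from that of adult C57BL/6 mice, all wild type. There was 1 library per population, so no test between the populations was possible, and the age of the donor mice, the isolation, the passages in culture and the library cannot be told apart. Every interval given here is an exact 95% Clopper-Pearson interval from the reads of a gene and covers counting error only.

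Each ribosome is built from a large and a small subunit, in which ribosomal RNA carries the catalytic and decoding functions and a set of mostly single-copy ribosomal protein genes supplies the protein shell. The mRNAs of these genes begin with a 5′ terminal oligopyrimidine (TOP) tract through which mTOR signaling controls their translation, and they are among the most abundant mRNAs of dividing cells. They have also left many processed pseudogenes in mammalian genomes, intronless copies of the mRNA that can be nearly identical to the parent gene. This last property matters for short reads, because only reads that matched a single place in the genome were counted.

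The libraries held 50674472 reads on genes for supportive and 49615497 for non-supportive ISEMFs. The 37 genes of the mitochondrial genome took 14.6% and 7.85% of these reads. Of the 5 myofibroblast markers, Acta2 was at RPKM (reads scaled to exon length and library size) 908 in supportive and 1410 in non-supportive ISEMFs and Vim at 325 and 407, whereas Des was at only 0.575 and 3.40. All 5 were lower in supportive ISEMFs, with a median log2 ratio of −0.64. The 3 endothelial markers stayed under RPKM 1. The 6 immune markers summed to RPKM 9.42 in supportive and 123 in non-supportive ISEMFs, and all 6 were at least 2-fold lower in the former. Of these, Tyrobp and Ptprc had no read in the supportive library. Of 6 epithelial markers, Krt20 alone reached RPKM 1, at 0.0799 and 3.13, and Cdx2 had no read in either library. Cdh1, with 159 and 18 reads, and Muc2, with 27 and 3, were higher in supportive ISEMFs. Epcam, with 0 and 5 reads, and Vil1, with 7 and 8, were not. In bulk RNA, fewer cells of a type and less RNA per cell cannot be told apart, and the part of these other cells in the ribosomal protein values was not tested.

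The sequences show what a 50-base read of a ribosomal protein gene looks like and how often it recurs. For 7 members, the middle 50 bases of the longest coding exon were read from mm9 on the coding strand. The first 4 windows recur elsewhere in the genome and the last 3 do not. Capitals are not used because the whole window is the part compared.
Rps12: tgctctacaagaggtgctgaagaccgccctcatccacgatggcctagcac
Rps27: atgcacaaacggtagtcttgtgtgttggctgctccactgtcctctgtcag
Rpl10: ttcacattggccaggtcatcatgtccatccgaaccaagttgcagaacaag
Rps26: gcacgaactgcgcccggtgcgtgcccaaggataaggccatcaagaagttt
Rpl4: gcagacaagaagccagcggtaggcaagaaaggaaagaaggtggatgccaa
Rps3: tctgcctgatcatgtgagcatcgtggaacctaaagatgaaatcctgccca
Rpl8: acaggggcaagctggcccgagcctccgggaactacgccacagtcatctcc
Rps12, Rps27, Rpl10 and Rps26 are components whose windows recurred without any base difference, at 5 other places for Rps12, 3 for Rps27, 5 for Rpl10 and 2 for Rps26. With up to 2 mismatches, which the alignment allowed, the same windows recurred at 23, 8, 9 and 3 other places. The windows of Rpl4, Rps3 and Rpl8 had no match elsewhere within 2 mismatches. The Rps12 window lies in coding exon 2 of 5 at chr10:23506604-23506653 on the minus strand, and the Rps27 window in coding exon 3 of 4 at chr3:90016887-90016936, also on the minus strand. The Rpl10 window lies in coding exon 5 of 6 at chrX:71518067-71518116 on the plus strand, and the Rps26 window in coding exon 2 of 4 at chr10:128063183-128063232 on the minus strand. The windows without a match lie at chr9:64026114-64026163 in coding exon 10 of Rpl4, at chr7:106627861-106627910 in coding exon 6 of Rps3 and at chr15:76735332-76735381 in coding exon 3 of Rpl8.

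This held across the gene set. Over all 50-base windows of their coding sequence, 65 of the 83 genes had no window that was unique within 2 mismatches, and 29 had none that was unique even when only exact matches were counted. Stretches elsewhere that matched at least 50 windows of a coding sequence numbered 1308 in all, with a median of 10 per gene and a maximum of 135 for Rpl7a. Only 3 genes had at least 80% of their windows unique within 2 mismatches, among them Rpl8 with 90.03% and the muscle paralog Rpl3l with 100%. By contrast, the 76 genes for mitochondrial ribosomal proteins, which build a separate ribosome inside mitochondria, had a median of 100% unique windows, and 2 of them had none.

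Of the 83 ribosomal protein genes, 70 had a mean RPKM under 10. The median member had an RPKM of 1.15 in supportive and 1.77 in non-supportive ISEMFs. Over the 9110 protein-coding genes that reached RPKM 1 in either library, the medians were 4.40 and 4.36. The members were not filtered on level, so these medians are not from like sets. Counted from the highest of all 22379 protein-coding genes, the median member ranked 8187 in supportive and 7056 in non-supportive ISEMFs. All 83 genes together held 88819 reads in supportive and 94050 in non-supportive ISEMFs, which was 0.175% (0.174 to 0.176) and 0.190% (0.188 to 0.191) of the reads on genes. RPKM 1 was reached by 46 members in both libraries, by 12 in non-supportive ISEMFs alone and by 0 in supportive ISEMFs alone, while 25 stayed under it in both.

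**Figure D1:**
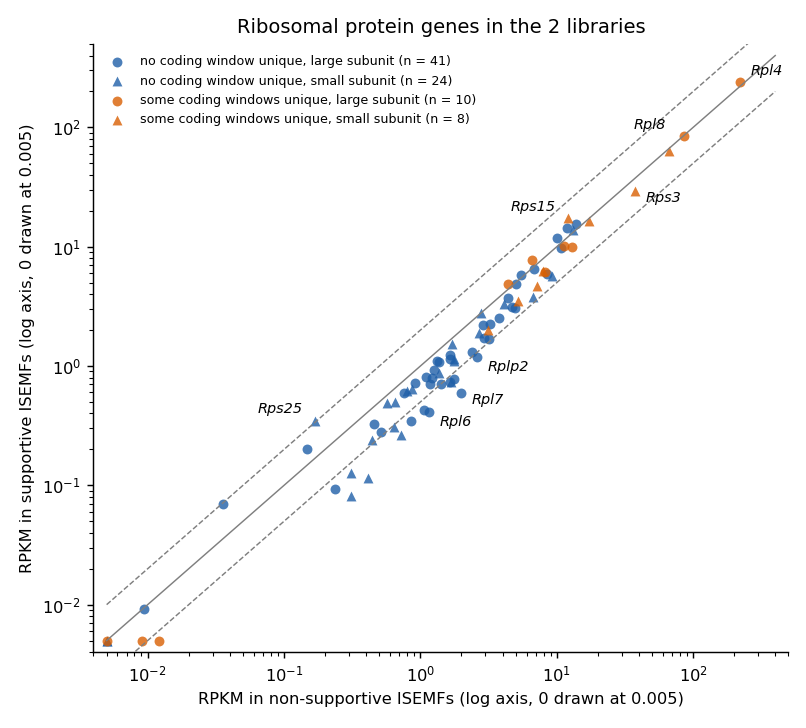
RPKM of each of the 83 ribosomal protein genes in non-supportive (x axis) and supportive ISEMFs (y axis), both log axes, with circles for large and triangles for small subunit genes and orange where part of the coding windows was unique within 2 mismatches. The solid line marks equal values and the dashed lines a 2-fold difference; Rpl4 lies at the top, and most genes between RPKM 0.1 and 10 lie below the solid line.

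Reads were concentrated on a few members. Rpl4, a large subunit protein that lines the exit tunnel, had 24222 and 21614 reads and was the highest member at RPKM 238 in supportive and 219 in non-supportive ISEMFs. Rpl8, at the peptidyl transferase center, followed at RPKM 84.6 and 85.8. Rps3, at the mRNA entry site and also a DNA repair protein, reached RPKM 29.1 and 37.5. These 3 genes held 44.5% and 41.8% of all member reads. Of their coding windows 79.7% for Rpl4, 91.1% for Rpl8 and 91.9% for Rps3 were unique by exact match, and 22.6%, 90.03% and 56.9% within 2 mismatches. Lower values were RPKM 16.3 and 17.2 for Rps9, 17.4 and 12.1 for Rps15, and 15.4 and 13.7 for Rpl10. Only 13 members had a mean RPKM of at least 10.

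At the other end, Rps12 and Rps27, both core proteins of the small subunit, had no read in either library. A count of 0 allows an RPKM of up to 0.0812 and 0.0836 for Rps12 and up to 0.122 and 0.125 for Rps27, taking 3 reads as the limit. These limits hold for uniquely mapped reads only and do not bound the expression of a gene without unique windows. Of the windows over all their annotated exons, 2.24% for Rps12 and 0% for Rps27 were unique within 2 mismatches. Rps26 and Rpl32 had equally few unique exon windows, at 2.23% and 2.49%, and yet reached RPKM 13.7 and 13.2 for Rps26 and 14.3 and 11.9 for Rpl32. By exact match 27.0% of the coding windows of Rps26 and 38.8% of those of Rpl32 were unique, against 0% for Rps12 and Rps27. Further core members below RPKM 1 in both libraries included Rpl13, Rpl18, Rpl19, Rpl23a, Rpl29, Rpl35, Rpl36, Rps2, Rps6, Rps7, Rps10, Rps13, Rps16, Rps23, Rps25, Rps28 and Rps29. Among these, Rps6, the S6 kinase substrate, had 16 and 38 reads and was 2.44-fold lower in supportive ISEMFs (1.33 to 4.69). Its 14 annotated copies had 105 and 78 reads, and summed over the family the ratio was 1.01 (0.779 to 1.32), so the difference was not present in the sum. Rpl35 and Rpl36 had at most 2 reads in a library.

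Across genes, the unique share of the coding sequence and the level went together. The Spearman correlation between the percentage of coding windows unique within 2 mismatches and the mean RPKM was 0.38 over the 83 genes and 0.57 over the 76 core genes, that is without the variant paralogs, and 0.57 over the latter with exact matches. The genes share both libraries and their depth, and they are not independent replicates. The 65 genes without a unique coding window had a median RPKM of 0.878 and 1.64 and did not exceed RPKM 15.4, the value of Rpl10 in supportive ISEMFs. The 18 genes with some unique windows had a median of 6.95 and 8.04, and the 13 core genes among them 10.1 and 12.1. The length that enters RPKM was not that of the coding sequence alone. The coding sequence was a median of 28.95% of the length by which reads were divided, since that length joins the exons of all annotated transcripts, and 70.4% of the windows over those joined exons were unique in the median gene. With the windows over the joined exons the correlation with the mean RPKM was weaker, at 0.16 over the 83 genes and 0.21 over the 76 core genes.

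**Figure D2:**
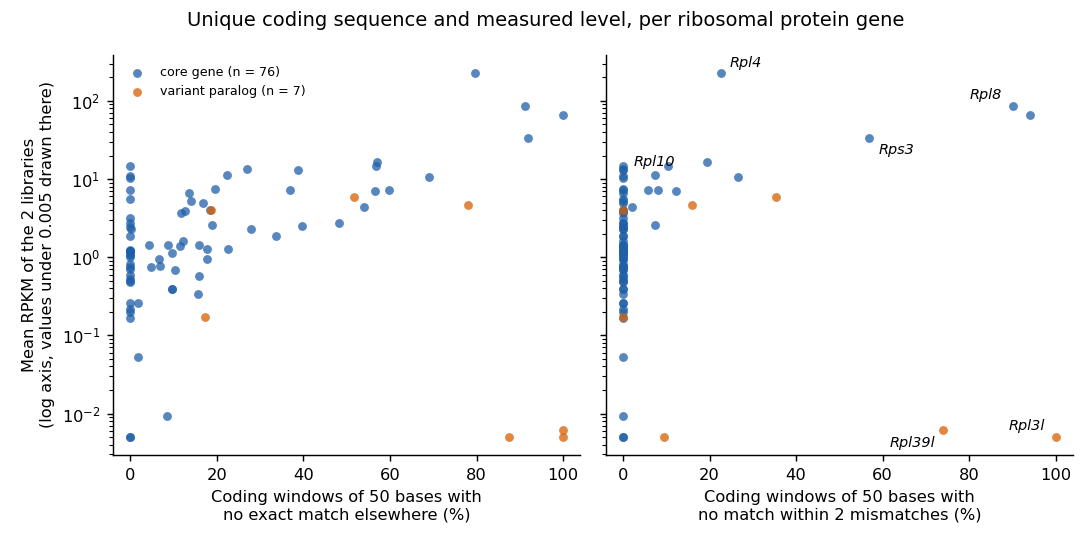
Percentage of 50-base coding windows without an exact match (left) or without a match within 2 mismatches (right) elsewhere in the genome against the mean RPKM of both libraries on a log axis, for 76 core genes and 7 variant paralogs. Rpl8, Rps3 and Rpl4 stand near the top, a column of genes at 0% spans the whole range below RPKM 16, and Rpl3l and Rpl39l lie at the bottom in spite of unique sequence.

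The copies themselves also took reads. Annotated pseudogenes, by gene type or by a -ps name, that lie on these copies numbered 640. Of these, 403 had a read and 19 had at least 100 over both libraries. Their reads summed to 14958 in supportive and 14702 in non-supportive ISEMFs, a ratio of 0.989 (0.966 to 1.01). In 8 families the most-read copy had at least 100 reads and exceeded its parent gene in both libraries.

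The largest of these was Rpl14-ps1 at chr7:52580328-52581023, a copy of the large subunit gene Rpl14, with 3298 and 3812 reads against 909 and 1135 on Rpl14. For Rps24, a small subunit gene mutated in Diamond-Blackfan anemia, the gene had 543 and 864 reads and was 1.64-fold lower in supportive ISEMFs (1.47 to 1.83). Its copy Gm8292 had 2535 and 1704 reads and was higher in supportive ISEMFs, whereas its copy Rps24-ps3 had 1225 and 1532. Summed over Rps24 and its 9 annotated copies, the reads were 4433 and 4318, a ratio of 0.998 (0.957 to 1.04). The difference on the gene was thus not present in the sum.

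Other families differed in this respect. Rpl10a had 223 and 277 reads, while Rpl10a-ps1 had 1827 and 1508, so that the gene was lower in supportive ISEMFs and the family sum was higher, with a ratio of 1.12 (1.05 to 1.19). For Rplp2, with 197 and 417 reads, and its copy Rplp2-ps1, with 912 and 1213, both were lower in supportive ISEMFs, and the family ratio was 0.661 (0.612 to 0.714). Rpl13a had 2451 and 2040 reads and its copy Gm11478 had 1529 and 1151, both higher in supportive ISEMFs, with a family ratio of 1.21 (1.16 to 1.27). Which of these reads came from a copy that is transcribed and which from the parent gene was not tested.

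**Figure D3:**
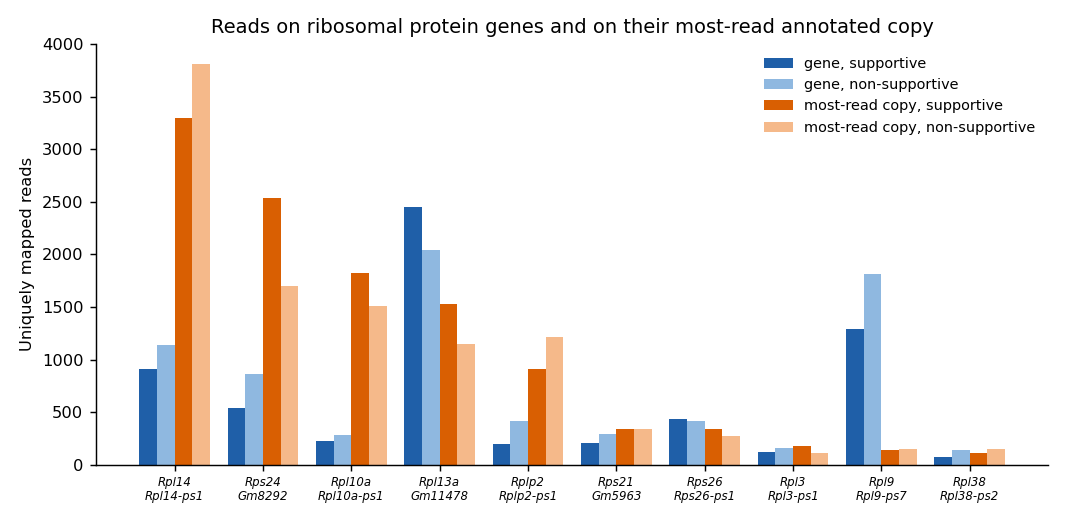
Uniquely mapped reads on 10 ribosomal protein genes (blue) and on the most-read annotated copy of each (orange), with the darker bar for supportive and the paler bar for non-supportive ISEMFs, from families in which that copy had at least 200 reads. Rpl14-ps1, Gm8292 and Rpl10a-ps1 stand above their parent genes in both libraries, and Rpl9 stands far above its copy.

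Between the populations, most members were lower in supportive ISEMFs by a small amount. Of the 83 genes, 12 were higher, 68 lower and 3 without a read, whereas 44.9% of all 16400 protein-coding genes with a read were higher and 55.1% lower. The median log2 ratio of supportive to non-supportive, taken on RPKM + 0.1, was −0.39 over the 83 genes. Over the 58 that reached RPKM 1 in either library it was −0.40, against −0.07 over the 9110 protein-coding genes that did so. Of these 58, none was at least 2-fold higher and 7 were at least 2-fold lower, while 9.25% and 8.98% of all genes were. At a log2 ratio of at least 0.32 in size, 1 member was higher and 37 were lower, against 25.9% and 32.8% of all genes. The filter admitted 12 members only through their non-supportive value, so these had to be lower. With a mean RPKM of at least 1 as the filter, 54 members remained with a median of −0.40, and 1 was higher and 33 lower by at least 0.32, against 24.8% and 32.0% of 8627 genes.

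The difference varied with the level of the gene. The 13 members with a mean RPKM of at least 10 had a median log2 ratio of −0.02, with 6 higher and 7 lower. The 2411 protein-coding genes at that level had −0.17, with 887 higher and 1524 lower. The 41 members with a mean RPKM from 1 to 10 had a median of −0.54, with 3 higher and 38 lower. The 6216 protein-coding genes in that range had −0.03, with 2982 higher and 3234 lower. The 18 members with some unique coding windows had a median of −0.15 and the 65 without had −0.48. For the 12 of the 58 members with at least 50% of coding windows unique by exact match it was −0.067, close to the −0.0685 of all genes, and with a minimum of RPKM 5 in either library it was −0.072 over 24 members against −0.127 over all genes. Among members with at least 100 reads in both libraries, of which there were 54, the median was −0.39. Pooled over all members the RPKM ratio was 0.918 (0.909 to 0.926), and without Rpl4, Rps3 and Rpl8 it was 0.876 (0.866 to 0.887). The size of this pooled difference varied with the scaling. The share was 0.178% in supportive and 0.187% in non-supportive ISEMFs with TMM and 0.177% and 0.188% with median-of-ratios size factors, but 0.205% and 0.206% with mitochondrial reads left out of the total. Under the last scaling the median of all genes moved by 0.12, to 0.05, and the median of the 58 members was −0.30.

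**Figure D4:**
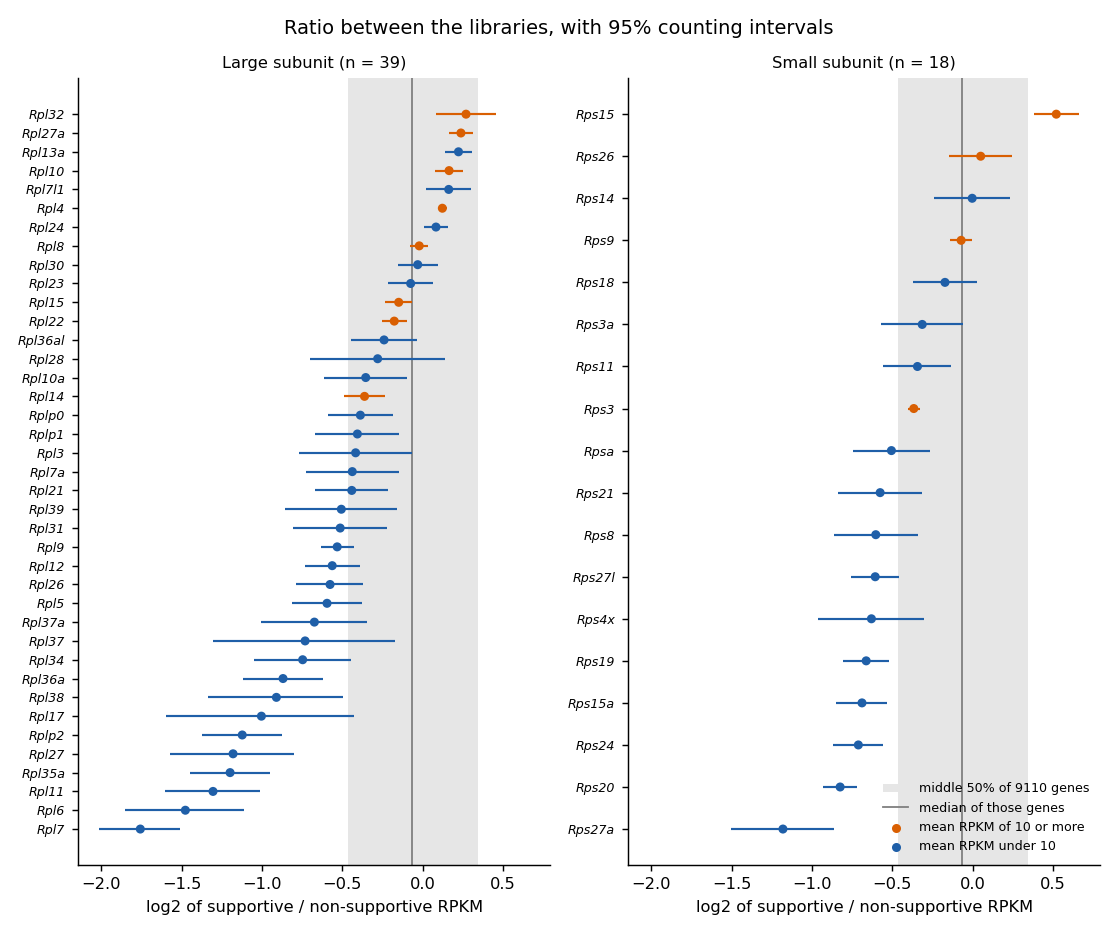
Log2 of the supportive to non-supportive RPKM ratio, without a pseudocount, for 57 of the 58 ribosomal protein genes that reached RPKM 1 in either library, ordered within each subunit, with 95% counting intervals as bars. The grey band and line give the middle 50% and the median of 9110 protein-coding genes on the RPKM + 0.1 scale; orange points with a mean RPKM of at least 10 lie near that median, and Rpl7 and Rps27a lie farthest to the left.

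By subunit, the 39 large subunit genes that reached RPKM 1 in either library had a median log2 ratio of −0.40 and the 19 small subunit genes −0.48. Of these, 6 large and 1 small subunit gene were at least 2-fold lower, against 7 of 51 and 4 of 32 when all 83 genes were counted. All of the 7 but Rplp2 reached RPKM 1 in non-supportive ISEMFs alone. Rpl7, an RNA-binding protein on the surface of the large subunit, was at RPKM 0.589 in supportive and 1.99 in non-supportive ISEMFs, with 171 and 562 reads, and was 3.38-fold lower (2.84 to 4.04). Rpl6 was at RPKM 0.413 and 1.15 and was 2.78-fold lower (2.16 to 3.61). Rpl35a, which is mutated in some patients with Diamond-Blackfan anemia, was at RPKM 0.774 and 1.78 and was 2.30-fold lower (1.93 to 2.73). Rps27a, made as a fusion with ubiquitin, was at RPKM 0.739 and 1.68. All 4 had no coding window that was unique within 2 mismatches, and each of the supportive values was under RPKM 1.

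Few members were higher in supportive ISEMFs. Rps15, a small subunit protein near the decoding site, was at RPKM 17.4 and 12.1, with 1022 and 692 reads, a ratio of 1.44 (1.30 to 1.58) and the highest log2 ratio of the 58, at 0.52. Rpl32 was at RPKM 14.3 and 11.9, Rpl27a at 11.8 and 10.03, and Rpl13a at 7.69 and 6.59, with ratios of 1.21 (1.06 to 1.37), 1.18 (1.12 to 1.24) and 1.17 (1.10 to 1.24). Rpl10, which joins the large subunit late in assembly, followed with a ratio of 1.12 (1.05 to 1.19). Among the members under RPKM 1, Rps25 had 17 and 8 reads, a ratio of 2.07 with an interval that included 1 (0.845 to 5.53). Rpl13a shares exon bases with Flt3l, and per the authors' methods reads that could not be given to a single gene were left out, so shared bases may enter its length without adding reads. Exons of 26 members overlap another gene in this way.

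The P-stalk recruits elongation factors to the ribosome through the acidic proteins Rplp1 and Rplp2, which are anchored by Rplp0. Rplp0 was at RPKM 2.20 in supportive and 2.88 in non-supportive ISEMFs, Rplp1 at 6.19 and 8.203, and Rplp2 at 1.19 and 2.59. They were 1.31-fold (1.14 to 1.504), 1.33-fold (1.11 to 1.59) and 2.18-fold (1.83 to 2.59) lower in supportive ISEMFs. On the genes alone, the interval of Rplp2 did not meet those of the other 2. Neither Rplp0 nor Rplp2 had a unique coding window within 2 mismatches, and only 8.19% of those of Rplp1 were unique. Summed with annotated copies, the ratios were 0.757 (0.661 to 0.867), 0.748 (0.625 to 0.895) and 0.661 (0.612 to 0.714). The family interval of Rplp2 overlapped those of Rplp0 and Rplp1. Rpsa, a small subunit protein also known as the laminin receptor, was at RPKM 1.90 and 2.70 and was 1.42-fold lower (1.204 to 1.68). Rpsa had 30 copies in the genome, and no unique coding window within 2 mismatches.

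Several ribosomal proteins act outside the ribosome. Rpl5 and Rpl11 bind Mdm2 and so stabilize p53 when ribosome assembly is disturbed. Rpl5 was at RPKM 0.800 and 1.21 and was 1.51-fold lower in supportive ISEMFs (1.30 to 1.76). Rpl11 was at 0.429 and 1.06 and was 2.47-fold lower (2.02 to 3.04). Neither had a unique coding window even by exact match, and both reached RPKM 1 in non-supportive ISEMFs alone. In the same libraries Mdm2 was at RPKM 24.5 and 41.8 and Trp53 at 5.34 and 8.03. A relation between these genes was not tested. Rps19, the gene most often mutated in Diamond-Blackfan anemia, was at RPKM 1.99 and 3.15 and was 1.58-fold lower (1.43 to 1.75). Rps3, with 10053 and 12591 reads, was 1.29-fold lower (1.26 to 1.32), and of Rpl4, Rpl8 and Rps3 it was the only one with a log2 ratio more than 0.32 from 0. This depended on the scaling. The log2 ratio of Rps3 was −0.365 on the deposited RPKM and −0.324 with median-of-ratios size factors. With TMM it was −0.309 and on reads other than mitochondrial −0.245, both within 0.32 of 0.

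The variant paralogs are second genes for a ribosomal protein, some of them restricted to muscle or testis. The coding sequences of 2 pairs from mm9 show how far a paralog differs from its partner, with capitals in the paralog marking each base that is not the same as in the gene above it.
Rps27: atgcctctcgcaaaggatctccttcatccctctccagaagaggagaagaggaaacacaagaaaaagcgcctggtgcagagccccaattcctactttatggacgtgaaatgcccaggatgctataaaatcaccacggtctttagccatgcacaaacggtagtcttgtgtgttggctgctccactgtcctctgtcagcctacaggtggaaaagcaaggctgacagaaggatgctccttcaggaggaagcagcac
Rps27l: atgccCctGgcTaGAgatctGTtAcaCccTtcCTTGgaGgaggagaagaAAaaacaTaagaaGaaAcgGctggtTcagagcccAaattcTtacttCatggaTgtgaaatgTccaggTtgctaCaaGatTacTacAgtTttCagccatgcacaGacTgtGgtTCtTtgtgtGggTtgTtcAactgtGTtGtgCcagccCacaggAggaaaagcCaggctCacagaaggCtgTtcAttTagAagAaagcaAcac
Rpl39: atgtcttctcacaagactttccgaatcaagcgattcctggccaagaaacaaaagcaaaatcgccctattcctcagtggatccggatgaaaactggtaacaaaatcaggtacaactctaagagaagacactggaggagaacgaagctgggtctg
Rpl39l: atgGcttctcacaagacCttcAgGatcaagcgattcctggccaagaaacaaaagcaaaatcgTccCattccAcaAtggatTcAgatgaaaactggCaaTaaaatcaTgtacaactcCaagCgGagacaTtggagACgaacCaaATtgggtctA
Rps27l differed from Rps27 at 60 of 252 bases and Rpl39l from Rpl39 at 23 of 153, which left the pairs 76.2% and 85.0% identical. The longest identical stretch was 11 bases in the first pair and 38 in the second, both shorter than a read. Rpl36al and Rpl36a were 87.7% identical over 318 bases and Rpl10l and Rpl10 84.7% over 642. The gene Rps27 lies at chr3:90016593-90017573 and Rpl39l at chr16:10170319-10175004.

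The paralogs were measured very unevenly. Rps27l, a p53 target, had 607 reads in supportive and 898 in non-supportive ISEMFs, at RPKM 4.69 and 7.14, while Rps27 had none. No exon window of Rps27 was unique within 2 mismatches, so its lack of reads is no measure of its expression beside Rps27l. Rps27l was 1.52-fold lower in supportive ISEMFs (1.37 to 1.69). Rpl7l1 was at RPKM 4.89 and 4.37 with a ratio of 1.12 (1.02 to 1.23), whereas its partner Rpl7 was 3.38-fold lower. Rpl36al was at RPKM 3.71 and 4.38 with a ratio of 0.847 (0.733 to 0.978), and Rpl36a was at 1.31 and 2.39 with a ratio of 0.547 (0.460 to 0.650). In both of these pairs the partner had the lower ratio and the intervals did not meet. Rpl22l1 had 7 and 5 reads, while Rpl22, whose loss is known to raise Rpl22l1, was at RPKM 10.1 and 11.4 with a ratio of 0.885 (0.838 to 0.934). Within 2 mismatches Rpl22l1 had no unique coding window, whereas 26.6% of those of Rpl22 were unique.

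The tissue-restricted paralogs were at or near 0. Rpl3l, known from heart and skeletal muscle, had 0 and 1 read, although 100% of its coding windows were unique. Rpl39l and Rpl10l, known from testis, had 0 and 1 read and no read, with 74.0% and 9.44% of coding windows unique. Their partners were at RPKM 1.24 and 1.66 for Rpl3, 1.15 and 1.64 for Rpl39, and 15.4 and 13.7 for Rpl10. Rps4x, on the X chromosome, was at RPKM 0.878 and 1.36 and was 1.55-fold lower in supportive ISEMFs (1.23 to 1.95).

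The TOP tract that these genes share was looked for at their annotated starts. A RefSeq start on GRCm38.p6 was matched for 62 of the 83 genes. A run of at least 8 consecutive C or T bases on the transcribed sense strand, within 15 bases either side of the start, was present in 27 of them, or 43.5%. The same run was present in 13.9% of 27025 genes and in 13.0% of 69 genes for mitochondrial ribosomal proteins. A few of the 30-base windows are shown with the longest run in capitals.
Rpl4: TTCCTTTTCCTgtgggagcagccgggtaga
Rpl35a: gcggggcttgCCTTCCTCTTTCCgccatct
Rplp2: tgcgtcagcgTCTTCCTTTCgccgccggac
Rpl7a: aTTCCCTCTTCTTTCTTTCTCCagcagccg
The windows are at chr9:64173372-64173401 for Rpl4, chr16:33056467-33056496 for Rpl35a, chr7:141447636-141447665 for Rplp2 and chr2:26910792-26910821 for Rpl7a, all on the plus strand of GRCm38.p6. Rpl7a had the longest run, of 21 bases, and Rpl4, the highest member, had 11. An annotated start can lie several bases from the one used in a cell, and the presence of a run is a description of the sequence only.

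Other genes of protein synthesis were set beside the ribosomal proteins. The lists name genes by function. As the background for every list, 4106 of the 9110 protein-coding genes that reached RPKM 1 in either library were higher and 5004 lower. Of 21 genes for the nucleolus and ribosome assembly that reached RPKM 1 in either library, 3 were higher and 18 lower, with a median log2 ratio of −0.58. Ncl, the nucleolar protein nucleolin, was at RPKM 92.0 in supportive and 176 in non-supportive ISEMFs, and Nop58, a core protein of box C/D ribonucleoproteins, at 49.4 and 82.3. These genes had a median of 88.0% unique coding windows. The higher ones were Polr1a and Polr1c, subunits of RNA polymerase I, and Ubtf, its transcription factor, with Ubtf at RPKM 3.63 and 2.52. The ratio was 1.31 (1.23 to 1.39) for Polr1c, but 1.02 for Polr1a with an interval that included 1 (0.965 to 1.07). Rrn3, of the same list, was among the lower genes at RPKM 15.4 and 24.9.

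Of the 5 elongation factors, which work on the ribosome and whose mRNAs carry TOP tracts, 4 were lower, and the median log2 ratio was −0.49. Eef2, which moves the ribosome along the mRNA, was the exception at RPKM 208 and 130. Eef1a1, which delivers aminoacyl-tRNA and has no unique coding window within 2 mismatches, was at only 5.35 and 5.63. A mixed list of 19 genes, of initiation factors and of other proteins with TOP mRNAs, had a median of −0.01, with 8 higher and 11 lower. Its log2 ratios ran from −0.64 for Eif4g1 to 0.70 for Eif4b. Whether each mRNA of this list carries a TOP tract was not tested. Among 10 regulators of TOP translation and ribosome synthesis the median was −0.13, with 3 higher and 7 lower. The lowest ratios were those of Larp1, which binds the TOP tract, at RPKM 9.12 and 17.8, and Myc at 2.76 and 5.21. Mtor was at RPKM 3.41 and 3.70, and Eif4ebp2, the highest in ratio, at 5.17 and 4.08. The 65 mitochondrial ribosomal protein genes had a median of −0.10, with 0 of them past 2-fold in either direction, 24 higher and 41 lower.

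**Figure D5:**
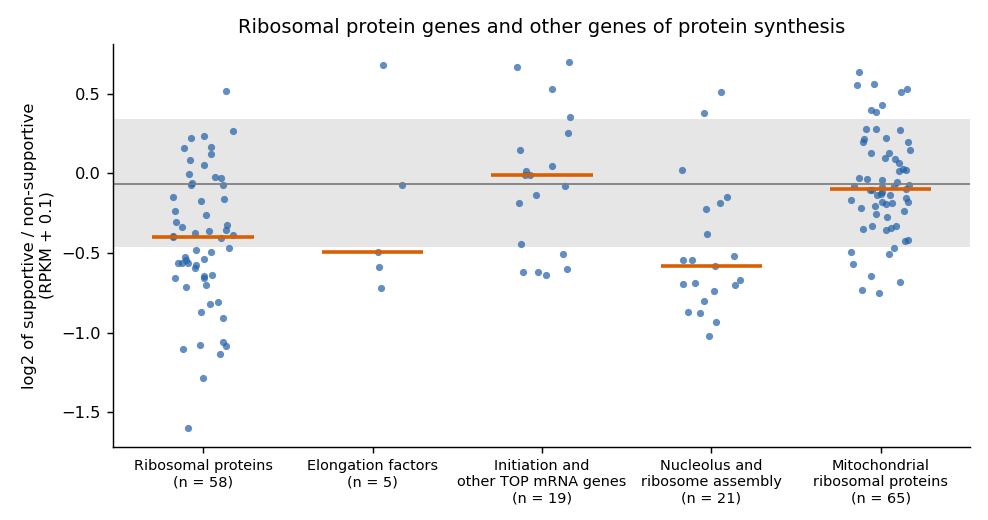
Log2 ratio of supportive to non-supportive RPKM + 0.1 per gene (points, spread sideways for legibility) for ribosomal protein genes and 4 other lists of genes of protein synthesis that reached RPKM 1 in either library, with the median of each list as an orange bar. The grey band and line are the middle 50% and median of 9110 protein-coding genes; the ribosomal protein and nucleolar medians are at −0.40 and −0.58, and that of mitochondrial ribosomal proteins at −0.10.

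Ribosomal proteins that the symbol rule does not reach were also read. Gnb2l1, also called Rack1, a scaffold on the small subunit with 93.3% unique coding windows, was at RPKM 27.6 and 32.0, with a log2 ratio of −0.21. Fau, a fusion of a ribosomal protein with a ubiquitin-like domain, had no unique coding window by exact match and was at RPKM 0.200 and 0.719. The 5 proliferation markers that reached RPKM 1 had a median log2 ratio of 0.30, with Mki67 at RPKM 45.5 and 36.7. Of these, 1 was higher by at least 0.32, and Pcna was at RPKM 3.33 and 3.32 with a ratio of 1.003 (0.899 to 1.12). Their relation to the ribosomal protein values was not tested.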

How the data were processed

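RNA of 2 cultured mouse ISEMF populations was sequenced, with 1 library each. Per the authors' methods, TruSeq libraries were read as single-end 50-base reads and aligned to mm9, allowing 2 mismatches and keeping unique hits only. The submitters' processing notes name TopHat2 2.0.4 and HTSeq 0.5.4p3. The deposited table holds the authors' read counts per gene and the authors' RPKM values, that is reads scaled to the length of the joined exons and to library sizes of 71463423 and 69449374 reads. It also holds columns of the authors' own comparison (log2 ratio, p and adjusted p), which were not used, and neither was the separate table of Wnt genes.

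The members and lists were chosen with earlier results of these data known. The named members are the P-stalk genes and Rpsa, the variant paralogs and their partners, those with the highest and lowest levels and ratios, members under RPKM 1 in both libraries, and Rpl5, Rpl11, Rps6, Rps19, Rps3 and Rpl13a. Further members were named after their values were seen, among them those with well-read copies. The variant Rps4l was not analysed here. Some genes enter the counts and medians but are not reported here by name. Ratios of single genes were computed from RPKM, with 0.1 added on the log2 scale, and intervals from the counts. Ratios of pooled members, copies and families were computed from summed reads scaled to the same library sizes, without gene length. Coding windows of 50 bases (CCDS transcript, GENCODE vM1) were searched on both strands of the mm9 genome outside the gene, with 0 to 2 mismatches, and matches of at least 50 windows with gaps of at most 1000 bases were joined as a copy. Reads on copies and family sums include only genes annotated as pseudogenes or carrying a -ps name, with an exon on a copy. Other annotated genes on a copy were left out. The aligner's own rule for a unique hit was not reproduced. The self-written code was tested on simulated data. Windows were searched with numba 0.67.0 and intervals computed with scipy 1.17.1 in Python 3.11.15, with matplotlib 3.10.9 for plots. edgeR 4.0.16 (TMM) and DESeq2 1.42.0 (size factors) in R 4.3.3 served for alternative scalings only. No count test was run, because there is 1 library per population.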

Additional observations from a re-analysis of the deposited data

How the results depend on the processing

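No paired analysis was possible because there is 1 library per population and no test was made. The median log2 ratio over all members was below 0 under every alternative that gave a value, but not below that of all genes with a minimum RPKM of 5 or for members at least 50% unique by exact match. In the order all members, large subunit and small subunit it was −0.36, −0.35 and −0.43 with TMM, −0.37, −0.37 and −0.45 with median-of-ratios size factors, −0.33, −0.33 and −0.42 when centred on the median of all genes, −0.30, −0.30 and −0.37 on reads other than mitochondrial, −0.44, −0.44 and −0.51 with a pseudocount of 0.001, and −0.31, −0.29 and −0.35 with one of 1. A minimum RPKM of 5 left 24 members and gave −0.072, −0.025 and −0.35, against −0.127 over all genes. With no minimum the small subunit had −0.44, and without variant paralogs −0.42. The cause was not tested.

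The count at least 2-fold apart was 0 instead of 7 with a pseudocount of 1 or a minimum of 5, and 11 with no minimum. The count at least 0.32 apart on the log2 scale was 10 instead of 38 with a minimum of 5. Members at least 80% unique were too few, under 5, to give a value. The share of reads in supportive and non-supportive ISEMFs was 0.178% and 0.187% with TMM, 0.177% and 0.188% with size factors, 0.205% and 0.206% without mitochondrial reads, and 0.172% and 0.185% without variant paralogs.

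A further 3 alternatives were chosen after seeing the data. Members with at least 50% of coding windows unique by exact match had a median of −0.067 against −0.0685 over all genes, with large subunit genes at 0.12 (reversed, 5 genes) and small subunit genes at −0.34, 0 members 2-fold and 5 members 0.32 apart, and a share of 0.125%. Without Rpl4, Rps3 and Rpl8 the medians were −0.47 over all and −0.52 for the small subunit, and the share 0.0974%. With a mean RPKM of at least 1 the medians were −0.395 over all members, −0.390 for the large and −0.484 for the small subunit. In the main setting they were −0.402, −0.400 and −0.484. Of 203 values of single named genes under the scalings and pseudocounts, 178 stayed within their counting interval, 25 moved beyond it, and none more than 0.32 from 0 changed sign. The sign of the small difference of Rpl8 changed with the scaling.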
